A study of Mus musculus with 12 samples.

Results

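The Nr4a orphan nuclear receptors Nr4a1, Nr4a2 and Nr4a3 were examined in mouse splenic B cells of 2 Foxp1 genotypes, with and without IgM. They are 3 of the 18194 genes that the arrays named by a probe set of their own, and 10 of the 45101 probe sets were annotated to them alone, 1 to Nr4a1, 6 to Nr4a2 and 3 to Nr4a3. RNA was measured on 12 one-colour arrays, 3 in each of 4 groups. The groups were Foxp1wt/flox cells without and with IgM, called control cells here, and Foxp1flox/del cells without and with IgM, called deleted cells. All cells were sorted from spleen on B220, a surface protein of most B cells, came from a mixed 129/Sv-C57BL/6 background, carried at least 1 conditional (flox) allele, and were kept in culture for 4 h. Per the labels, the stimulus was IgM. The sources used here name no Cre, give no check that the flox allele had been deleted, and do not tell whether each replicate was another animal. The p-values therefore cover only how these arrays varied, which may be technical.

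Nr4a1 (Nur77), Nr4a2 (Nurr1) and Nr4a3 (Nor1) are transcription factors of the nuclear receptor family without an established natural ligand, and their activity depends largely on how much of each is made. They are immediate early genes that lymphocytes switch on within hours of an antigen receptor signal, through calcium and kinase pathways, and Nr4a1 reporter mice are used to read that signal in B cells. In B cells they are known as brakes on activation by antigen without a second signal. All members bind the same DNA element as monomers, and Nr4a1 and Nr4a2, but not Nr4a3, can also pair with the retinoid X receptors.

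The 3 genes lie on different chromosomes. In the GRCm38.p6 gene table Nr4a1 spans positions 101253902 to 101274795 of chromosome 15, Nr4a2 positions 57106830 to 57124003 of chromosome 2, and Nr4a3 positions 48045078 to 48086447 of chromosome 4. Because the members moved together, as described below, the 250 bases upstream of one annotated start of each gene are shown from RefSeq, 5′ to 3′ on the strand of the gene, with matches to the half-site of the cAMP response element in capitals. CREB family proteins bind this element. The sequences are those of chr15:101266596-101266845 (plus strand), chr2:57124004-57124253 (minus strand) and chr4:48045055-48045304 (plus strand), which lie upstream of one transcript start each. The whole Nr4a1 window lies inside the annotated Nr4a1 span, and the span of Nr4a3 begins inside its window.
Nr4a1: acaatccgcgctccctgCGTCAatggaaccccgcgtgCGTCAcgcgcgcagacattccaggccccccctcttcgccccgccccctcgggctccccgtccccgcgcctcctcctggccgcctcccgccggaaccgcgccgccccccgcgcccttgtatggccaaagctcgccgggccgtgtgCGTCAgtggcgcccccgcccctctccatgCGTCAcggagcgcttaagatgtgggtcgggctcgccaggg
Nr4a2: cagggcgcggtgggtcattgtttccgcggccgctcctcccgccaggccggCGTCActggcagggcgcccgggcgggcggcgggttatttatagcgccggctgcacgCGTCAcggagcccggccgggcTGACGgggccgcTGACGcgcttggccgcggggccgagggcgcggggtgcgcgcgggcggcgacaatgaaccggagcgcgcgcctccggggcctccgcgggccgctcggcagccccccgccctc
Nr4a3: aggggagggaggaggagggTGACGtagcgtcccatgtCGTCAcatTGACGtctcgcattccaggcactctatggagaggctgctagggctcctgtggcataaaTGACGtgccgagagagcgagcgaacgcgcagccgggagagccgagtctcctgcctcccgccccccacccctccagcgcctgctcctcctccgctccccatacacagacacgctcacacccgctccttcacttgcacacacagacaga
The half-site searched was TGACG on either strand, and each of the 3 windows held 4 matches. At least 1 match occurred in 17.8% of 32851 annotated promoter windows of the same length, and at least 4 matches in 0.137%. In Nr4a1 all 4 lay on the opposite strand, the last pair at -69 to -65 and -40 to -36 from the start, whereas Nr4a2 and Nr4a3 had matches on both strands. The windows were rich in G and C, at 74.4% for Nr4a1, 80% for Nr4a2 and 63.6% for Nr4a3, against a median of 52.4% over all windows. No other element was shared. Both strands were also searched for the full element TGACGTCA, the AP-1 site TGANTCA, the element AAAGGTCA that Nr4a proteins bind, the forkhead site TGTTTAC, the CArG box of the serum response factor and the MEF2 consensus. Only the MEF2 consensus matched, once, in Nr4a2 at -167 to -158. Of all windows, 1.55% held the full element, 6.75% the AP-1 site, 1.34% the Nr4a element, 3.17% the forkhead site, 1.47% the CArG box and 2.92% the MEF2 consensus. A full match to the first contains the half-site on both strands. All these shares were taken over all windows and not over windows equally rich in G and C. Whether any match bears on the shared changes of the 3 genes was not tested.

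**Figure D1:**
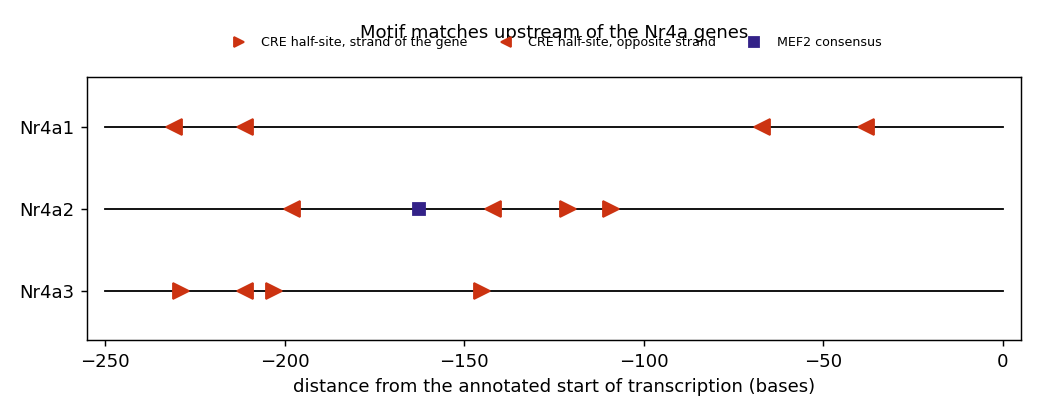
Position of motif matches in the 250 bases upstream of the annotated start of each gene; the x axis is the distance from the start in bases, red triangles are half-sites of the cAMP response element pointing along the matching strand, and the square is the MEF2 consensus. Each gene has 4 half-sites, at different positions.

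Values are the deposited log2 values, and probe sets with a value above 4 on at least 3 arrays were tested. Of the 10 Nr4a probe sets 6 passed, 1 for Nr4a1, 4 for Nr4a2 and 1 for Nr4a3. Of the other 4, 3 stayed below 4 on all arrays, near the array floor of 2.23. Probe set 1433422_at (Nr4a2) never exceeded 2.25, and 1421080_at (Nr4a3) never exceeded 2.33. Probe set 1433423_at (Nr4a2) lay above 4 on 2 arrays, both of control cells with IgM, and 1421079_at (Nr4a3) reached 3.39 on one such array. Levels of different probe sets cannot be set against each other on these arrays.

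The B cell identity of the samples was read from 8 measured markers of 9 listed, all of which passed the filter. Their summed linear signal ranged from 88398 to 91544 in control cells and from 85435 to 88912 in deleted cells without IgM. With IgM it was lower in both genotypes, 44755 to 48569 and 50505 to 56495. Arrays of one group correlated across tested probe sets at 0.948 or more, except that the array labelled deleted IgM replicate 3 correlated at 0.837 and 0.884 with its group mates. Its poly-A controls averaged 6.75, against 7.90 to 10.6 on the other 11 arrays. In every group this average fell with the replicate number, in control cells without IgM from 10.6 to 9.52 and 8.61. The replicate number thus also follows a technical control. Member results and list counts that deleted IgM replicate 3 moved are given with and without it. Foxp1 was read by 8 probe sets, and none was called different between genotypes (log2 differences of -0.29 to 0.13 without IgM and of -0.30 to 0.32 with IgM, smallest limma adjusted p 1 and 0.662). Whether any of them reads the exons that the flox allele removes was not known.

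Nr4a1 on probe set 1416505_at had log2 values of 11.06, 11.48 and 11.20 in control cells without IgM (replicates 1 to 3) and of 9.44, 9.66 and 9.35 in deleted cells without IgM. With IgM the values were 12.82, 13.00 and 12.97 in control cells and 12.34, 12.20 and 12.66 in deleted cells. The groups did not overlap at any step of the order control with IgM, deleted with IgM, control without IgM and deleted without IgM. The group means were 12.93 ± 0.10, 12.40 ± 0.24, 11.25 ± 0.22 and 9.48 ± 0.16 (SD, n = 3 each).

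Nr4a2 is represented by probe set 1455034_at, the brightest of its 6. It had values of 7.98, 9.11 and 8.53 in control cells and 5.46, 6.93 and 6.43 in deleted cells without IgM, and of 11.60, 11.75 and 12.10 in control cells and 10.32, 10.29 and 10.40 in deleted cells with IgM. The order of the groups was that of Nr4a1, again without overlap between neighbours. Without IgM, replicate 1 was lowest and replicate 2 highest in both genotypes.

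Nr4a3 on probe set 1438796_at had values of 9.49, 10.92 and 10.16 in control cells and 7.91, 8.89 and 8.18 in deleted cells without IgM. With IgM it had 12.08, 12.77 and 12.70 in control cells and 11.23, 11.56 and 12.20 in deleted cells. The order of the means was the same, but here the upper pair of groups overlapped. Deleted IgM replicate 3, at 12.20, lay above control IgM replicate 1, and it was also the highest of its group for Nr4a1.

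The other 3 tested probe sets of Nr4a2 were read at lower signals. Probe set 1447863_s_at had 5.45, 7.07 and 5.97 in control and 2.87, 4.35 and 3.21 in deleted cells without IgM, and 9.28, 9.80 and 9.89 against 7.82, 8.30 and 8.16 with it. Probe set 1450750_a_at had 4.89, 6.13 and 5.48 against 3.43, 4.34 and 3.45 without IgM, and 8.59, 9.09 and 9.33 against 7.08, 7.04 and 7.65 with it. On both, deleted cells without IgM came close to the floor, where differences are compressed. Probe set 1450749_a_at gave a different picture. It had 5.37, 5.57 and 4.80 in control and 5.11, 5.05 and 5.07 in deleted cells without IgM, which overlapped, and 7.64, 8.18 and 7.85 against 6.38, 6.43 and 6.32 with IgM, which did not.

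**Figure D2:**
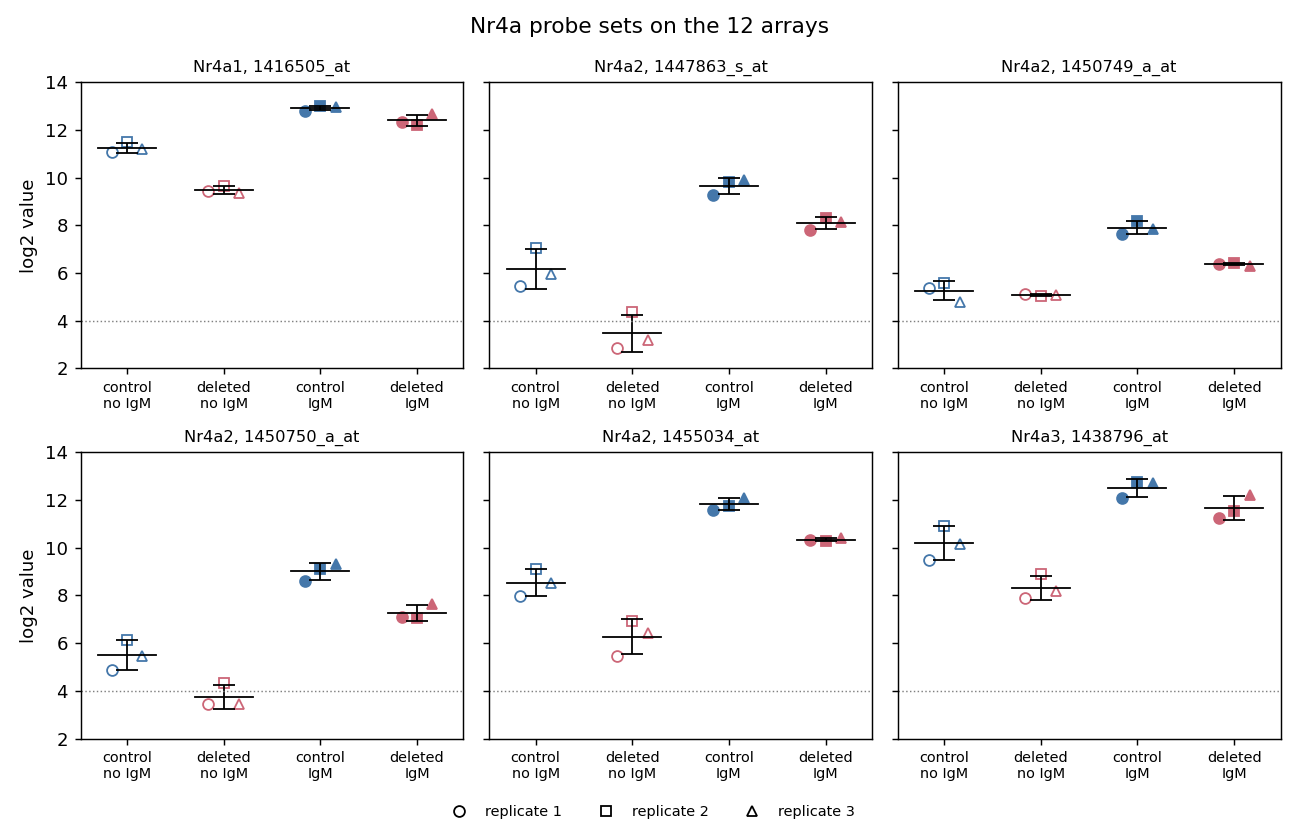
Log2 values (y axis) of the 6 tested Nr4a probe sets on the 12 arrays, by genotype and stimulation (x axis); symbols are replicates 1 to 3, open without IgM and filled with IgM, blue for control and red for deleted cells, lines and bars are the mean and SD of 3 arrays, and the dotted line is the filter at 4. The means of deleted cells lie under those of control cells in each panel, and arrays of the genotypes overlap only without IgM in 1450749_a_at and with IgM in Nr4a3.

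The first comparison asked whether unstimulated cells of the 2 genotypes differed. All 3 genes fell in deleted cells. Nr4a1 fell by 1.77 (SE 0.20, limma adjusted p = 0.000906), a 3.40-fold lower level, Nr4a2 on 1455034_at by 2.26 (SE 0.38, limma adjusted p = 0.00965), or 4.81-fold, and Nr4a3 by 1.87 (SE 0.41, limma adjusted p = 0.0437), or 3.65-fold. In all, 5 of the 6 probe sets were called lower, against 0.552% of the 19187 probe sets tested, and the same 5 did not overlap between genotypes, against 9.12% of all. The remaining one, 1450749_a_at, had a difference of -0.17 (SE 0.23, limma adjusted p = 1), so the probe sets of Nr4a2 disagreed.

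Among the others, 1447863_s_at fell by 2.69 (SE 0.45, limma adjusted p = 0.0105) and 1450750_a_at by 1.76 (SE 0.37, limma adjusted p = 0.0366). Within same-numbered pairs the difference was steady. It was -1.62, -1.82 and -1.86 for Nr4a1, -2.51, -2.18 and -2.10 for Nr4a2 on 1455034_at, and -1.59, -2.04 and -1.98 for Nr4a3.

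The calls for Nr4a1 and for Nr4a2 on 1455034_at held when any 1 of the 12 arrays was left out (limma adjusted p up to 0.0068 and 0.0459). That for Nr4a3 held in 4 of 12 such fits and that for 1450750_a_at in 5 of 12, with limma adjusted p up to 0.18 and 0.151. The call for 1447863_s_at was lost without deleted unstimulated replicate 1 (limma adjusted p = 0.0501). The number of probe sets called was 3 without control IgM replicate 2 or 3, control unstimulated replicate 2 or 3, deleted IgM replicate 2 or deleted unstimulated replicate 3, and 2 without deleted unstimulated replicate 1. It was 1 in a fit to only the 6 arrays compared. When replicate number entered the fit as a block, the same 5 were called, with limma adjusted p = 0.0033 for Nr4a3 and 0.00729 for 1450750_a_at. That fit called 1028 of all 19187 probe sets in either direction, against 389 without the block.

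The second comparison asked whether the genotypes still differed after 4 h with IgM. All 6 probe sets had lower means in deleted cells, and 5 did not overlap, against 5.85% of all probe sets tested. Only 1, 1450749_a_at of Nr4a2, was called lower, by 1.52 (SE 0.23, limma adjusted p = 0.0132), against 0.13% of all. For Nr4a2 on 1455034_at the log2 difference was -1.48 (SE 0.38, limma adjusted p = 0.1), on 1447863_s_at -1.56 (SE 0.45, limma adjusted p = 0.156) and on 1450750_a_at -1.75 (SE 0.37, limma adjusted p = 0.0523). The 4 probe sets of Nr4a2 thus lay between -1.75 and -1.48. The difference was -0.53 (SE 0.20, limma adjusted p = 0.336) for Nr4a1 and -0.85 (SE 0.41, limma adjusted p = 0.445) for Nr4a3.

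Same-numbered arrays deviated together, and when replicate number entered the fit as a block, limma called all 4 probe sets of Nr4a2 lower with IgM (limma adjusted p 0.00416 to 0.0202). Nr4a1 and Nr4a3 did not pass in it (limma adjusted p = 0.131 and 0.102). In that fit without deleted IgM replicate 3, all 6 passed, with -0.68 for Nr4a1 and -1.12 for Nr4a3 (limma adjusted p = 0.0257 and 0.0271). Over all 19187 probe sets the calls in either direction were 921 with the block and 1551 with both changes, against 229 with neither. Without the block, leaving out deleted IgM replicate 3 gave -0.66 and -1.12 (limma adjusted p = 0.13 and 0.332), and the count of Nr4a calls was 1 again. The count was 0 without control IgM replicate 2 or 3, 2 without control unstimulated replicate 2, and 0 in a fit to only the 6 arrays compared. Within pairs the difference for Nr4a1 was -0.48, -0.79 and -0.31.

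Markers of granulocytes and macrophages moved with the genotype as well. The summed linear signal of the 7 measured neutrophil markers, of 8 listed and all above the filter, was 283 to 2447 in control and 2618 to 18749 in deleted cells without IgM, and 202 to 1356 and 1693 to 10924 with it. That of the 8 macrophage and monocyte markers was 224 to 565 and 759 to 3075 without IgM, and 187 to 464 and 476 to 2440 with it, while Itgam, Mertk and Fcgr1 lay at or below 4 on all arrays. All 7 neutrophil markers had higher means in deleted cells, but limma called 0 of them in either comparison, with 2 and 1 under 0.05 before adjustment. Of the macrophage markers Csf1r, the receptor of a macrophage growth factor, rose by 3.69 and 3.99 without and with IgM, whereas Adgre1, the macrophage surface protein F4/80, fell by 1.45 without it (limma adjusted p 0.0245 to 0.0437). The Csf1r means were 3.85 and 3.94 in control cells, under the filter of 4, and 7.54 and 7.92 in deleted cells. Csf1r thus passed the filter mainly through deleted cells, and the sizes of its differences are not exact. The sums were thus higher where the Nr4a levels were lower, and their part in the result was not tested. In bulk RNA, fewer cells of a type and less RNA per cell cannot be told apart.

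The next comparisons asked how IgM altered the genes in each genotype. All 6 probe sets rose with IgM in control cells, against 8.24% of all tested probe sets called higher, and all 6 rose in deleted cells, against 9.95%. No groups overlapped, against 21.2% of all probe sets higher without overlap in control and 17.8% in deleted cells. In control cells Nr4a1 rose by 1.68 ± 0.20, or 3.21-fold, Nr4a2 on 1455034_at by 3.28 ± 0.38, or 9.70-fold, and Nr4a3 by 2.32 ± 0.41, or 5.01-fold (SE, n = 3 per group, limma adjusted p 0.000319 to 0.00312). In deleted cells Nr4a1 rose by 2.92 ± 0.20, or 7.57-fold, Nr4a2 on the same probe set by 4.06 ± 0.38, or 16.7-fold, and Nr4a3 by 3.34 ± 0.41, or 10.1-fold (SE, n = 3 per group, limma adjusted p 2.97e-05 to 0.00056).

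The other Nr4a2 probe sets rose by 3.49 (1447863_s_at), 3.51 (1450750_a_at) and 2.64 (1450749_a_at) in control cells, and by 4.62, 3.52 and 1.30 in deleted cells. All 12 of these calls held when any 1 array was left out, with limma adjusted p up to 0.0167, and when the replicate number was a block. Without deleted IgM replicate 3 the rises in deleted cells were 2.79 for Nr4a1, 4.03 for Nr4a2 on 1455034_at and 3.07 for Nr4a3. The summed signal of the B cell markers was lower with IgM, as given above, and its part in these rises was not tested.

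The interaction asked whether the rise with IgM differed between genotypes. It was called for none of the 6 probe sets, against 0.099% of all tested, while before adjustment limma gave 2 of the 6 a p under 0.05, against 3.63% of all. These 2 went in opposite directions. Nr4a1 had a larger rise in deleted cells, and 1450749_a_at of Nr4a2 had a smaller one, as given below. The rise was larger in deleted cells by 1.24 ± 0.29 for Nr4a1, 0.78 ± 0.53 for Nr4a2 on 1455034_at, 1.12 ± 0.64 on 1447863_s_at and 1.02 ± 0.58 for Nr4a3 (SE, n = 3 per group, limma adjusted p 0.41 to 0.968). Leaving out 1 array moved these values to as little as 1.11 for Nr4a1 (deleted IgM replicate 3), 0.37 on 1455034_at (deleted unstimulated replicate 1), and 0.67 on 1447863_s_at and 0.65 for Nr4a3 (both control unstimulated replicate 2). Within same-numbered sets it was larger in deleted cells in 3 of 3 for each of these 4 probe sets. For Nr4a1 the adjusted p was 0.139 with the replicate block in limma, 0.231 without deleted IgM replicate 3 and 0.0452 with both changes, where the value was 1.09.

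The remaining probe sets of Nr4a2 did not follow the others in the interaction. On 1450750_a_at the value was 0.01 ± 0.52, and on 1450749_a_at it was -1.35 ± 0.33, a smaller rise in deleted cells in 3 of 3 numbered sets (SE, n = 3 per group, limma adjusted p = 0.996 and 0.451). Which transcripts of Nr4a2 each of them reads was not known here.

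**Figure D3:**
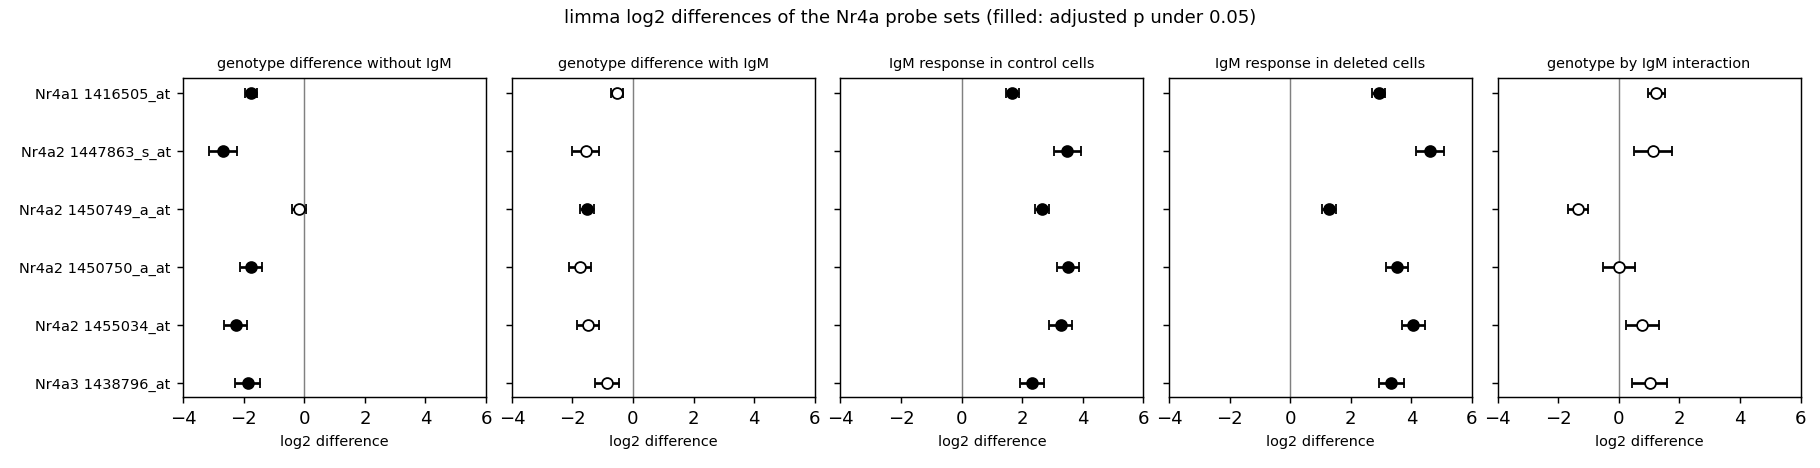
Log2 differences (x axis) with their standard errors for the 6 tested Nr4a probe sets (y axis) in the 5 comparisons, each over 3 arrays per group; filled points passed an adjusted p of 0.05 in limma. All 12 IgM responses are filled, and 1450749_a_at differs from the other probe sets without IgM and in the interaction.

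The early response genes, those switched on within hours of an antigen receptor signal, were read as a list of 36, of which 35 were measured, each by its probe set of highest signal. With IgM 18 rose and 0 fell in control cells, and 18 rose and 0 fell in deleted cells. The median log2 change was 1.11 and 1.24, against -0.05 and -0.08 over all 9293 genes, of which 8.32% and 9.3% rose. With the replicate block 21 rose in each genotype, and 3 fell in control and 2 in deleted cells. Without deleted IgM replicate 3, 23 rose and 2 fell in control cells and 24 rose and 0 fell in deleted cells. Over all probe sets the calls in either direction went from 3483 to 6412 with the block and 5870 without that array in control cells. In deleted cells they went from 3260 to 6603 and 4044. The members with the smallest p in control cells were the AP-1 subunit Fosl2 (3.06), the G protein regulator Rgs1 (3.42), the zinc finger factor Egr2 (2.79) and the small Maf factor Maff (3.79). In deleted cells they were Egr2 (3.86), Irf4 (1.82), the helix-loop-helix repressor Bhlhe40 (2.87) and Fosl2 (2.81).

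Without IgM 2 of the 35 fell in deleted cells and 0 rose, where 0.646% of all genes fell. The phosphatase gene Dusp4 fell by 2.08 and the transcription factor gene Irf4 by 0.89 (SE 0.29 and 0.19, limma adjusted p = 0.00347 and 0.0337), and the call for Irf4 was lost in 14 of 25 alternative fits. The list median was -0.67, against 0.00 over all genes, and 6 of 35 differences were positive. Before adjustment limma gave 19 of the 35 a p under 0.05, against 10.4% of all genes. With the replicate block 12 fell, without deleted IgM replicate 3 it was 9, and with both changes 19 fell and 4 rose. Over all 19187 probe sets the calls in either direction were 1028, 760 and 3197 in these 3 fits, against 389 with neither change. Between genotypes with IgM limma called 0 of the 35, with 9 at an unadjusted p under 0.05, against 13.5% of all genes. The list median was -0.44, against 0.08 over all genes. With the block 5 fell, without deleted IgM replicate 3 it was 1, and with both changes 7 fell and 1 rose. The calls over all probe sets were then 921, 258 and 1551, against 229. List counts from these fits, here and below, are to be read against these larger numbers of calls. The interaction was called for 0 of the 35, with or without the block, and 5 had an unadjusted p under 0.05 in limma, against 3.68% of all genes.

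The proteins that carry the signal to the Nr4a genes were read as a list of 39 calcium, calcineurin, NFAT, MEF2 and CREB genes, of which 34 were measured. Without IgM 1 fell in deleted cells, Crem, by 1.75 (SE 0.30, limma adjusted p = 0.0117), and 0 rose. Crem encodes activators and inducible repressors that bind cAMP response elements. With the block 1 also rose, and without deleted IgM replicate 3 it was 2. With both changes 6 rose and 5 fell. The call for Crem was lost without control unstimulated replicate 1 or deleted unstimulated replicate 1. The list median was -0.01, and 7 of the 34 had an unadjusted p under 0.05 in limma, against 10.4% of all genes. With IgM limma called 0 of the 34 between genotypes, with 9 at an unadjusted p under 0.05, against 13.5% of all genes, and 3 rose and 2 fell with the block. Crem had then a difference of -1.17 (limma adjusted p = 0.106). With IgM 8 of the 34 fell and 1 rose in control cells, where 11.4% of all genes fell and 8.32% rose. In deleted cells 6 fell and 1 rose, where 8.78% of all genes fell and 9.3% rose. The riser in both was Rcan1, an inhibitor and NFAT-induced target of calcineurin, by 0.87 and 1.21. In control and deleted cells the log2 change was -1.73 and -1.26 for the catalytic calcineurin subunit gene Ppp3ca, -1.38 and -1.09 for the histone deacetylase gene Hdac5 and -2.61 and -1.92 for the calcium channel gene Itpr3, all of which passed. The call for Rcan1 in control cells was lost in 10 of 25 alternative fits. The list medians were -0.44 and -0.18. With the block 13 fell and 4 rose in control cells, and 10 fell and 5 rose in deleted cells. These counts were 12 and 4, and 10 and 4, without deleted IgM replicate 3, and 19 and 7, and 15 and 7, with both changes. With both changes 6 rose and 2 fell between genotypes with IgM. The interaction was called for 0 of the 34, and for 2 with both changes.

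Of 46 other nuclear receptors listed, 12 were measured. Their counts lay near those of all genes, of which 8.32% rose and 11.4% fell with IgM in control cells and 9.3% rose and 8.78% fell in deleted cells. In control cells with IgM 1 receptor rose, the germ cell nuclear factor gene Nr6a1, by 1.93, and 1 fell, the glucocorticoid receptor gene Nr3c1, by 1.04 on the log2 scale. In deleted cells Nr6a1 rose by 1.56, the circadian repressor gene Nr1d2 rose by 1.04 and Nr3c1 fell by 0.64 (limma adjusted p 0.0112 to 0.0307). In deleted cells the call for Nr1d2 was lost in 6 of 25 alternative fits, among them those without deleted unstimulated replicate 1 or 2, and that for Nr3c1 in 10 of 25. When deleted IgM replicate 3 was left out, 2 rose and 2 fell in control cells. With the block 3 fell in control cells and 2 in deleted cells. Between genotypes with IgM limma called 0 of the 12, with 4 at an unadjusted p under 0.05, against 13.5% of all genes, and 1 rose with the block. With the block and without deleted IgM replicate 3, 2 rose and 0 fell with IgM, and 1 rose and 3 fell without it. Without IgM the retinoid-related receptor gene Rora had a higher level in deleted cells, by 1.16 (limma adjusted p = 0.0462), a call lost in 18 of 24 alternative fits. Its means were 3.24 in control and 4.40 in deleted cells. Control cells thus lay under the filter of 4, where the sizes of differences are not exact. The Nr4a partner gene Rxrb had log2 differences of -0.11 to 0.04 over the first 4 comparisons, none of which passed, and Rxra did not pass the filter.

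The last list held 12 genes that Nr4a proteins are reported to restrain in lymphocytes or that mark lymphocyte activation, of which 11 were measured and 5 also stood on the early response list. With IgM 4 rose and 1 fell in each genotype, where 8.32% and 9.3% of all genes rose and 11.4% and 8.78% fell in control and deleted cells. Without deleted IgM replicate 3, 8 rose in control and 7 in deleted cells, and with the block 8 and 4. The growth regulator Myc rose by 1.90 and 2.49, the activation marker Cd69 by 1.52 and 2.05, in control and deleted cells. The quiescence factor Klf2 fell, with log2 changes of -2.55 and -2.68. Without IgM the transcription factor gene Ikzf2 rose by 1.27 in deleted cells (limma adjusted p = 0.0332, lost in 13 of 25 alternative fits), and Irf4 fell as given above. For Myc the difference was -0.93 (limma adjusted p = 0.217). Before adjustment limma gave 8 of the 11 a p under 0.05 without IgM, against 10.4% of all genes, and 3 of the 11 differences were positive. With IgM limma called 0 of the 11 between genotypes, with 4 at an unadjusted p under 0.05, against 13.5% of all genes. The AP-1 family gene Batf had a difference of -1.82 (SE 0.55, limma adjusted p = 0.179). Those of the chemokine genes Ccl3 and Ccl4 were larger, at -2.65 and -2.39 (limma adjusted p = 0.0923 and 0.111). Of the 11 differences, 4 were positive. With the block, 3 fell and 1 rose in that comparison, and 3 fell and 2 rose without IgM. Without deleted IgM replicate 3, 1 fell with IgM and 3 fell without it. With both changes 3 fell and 1 rose with IgM, and 7 fell and 2 rose without it.

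**Figure D4:**
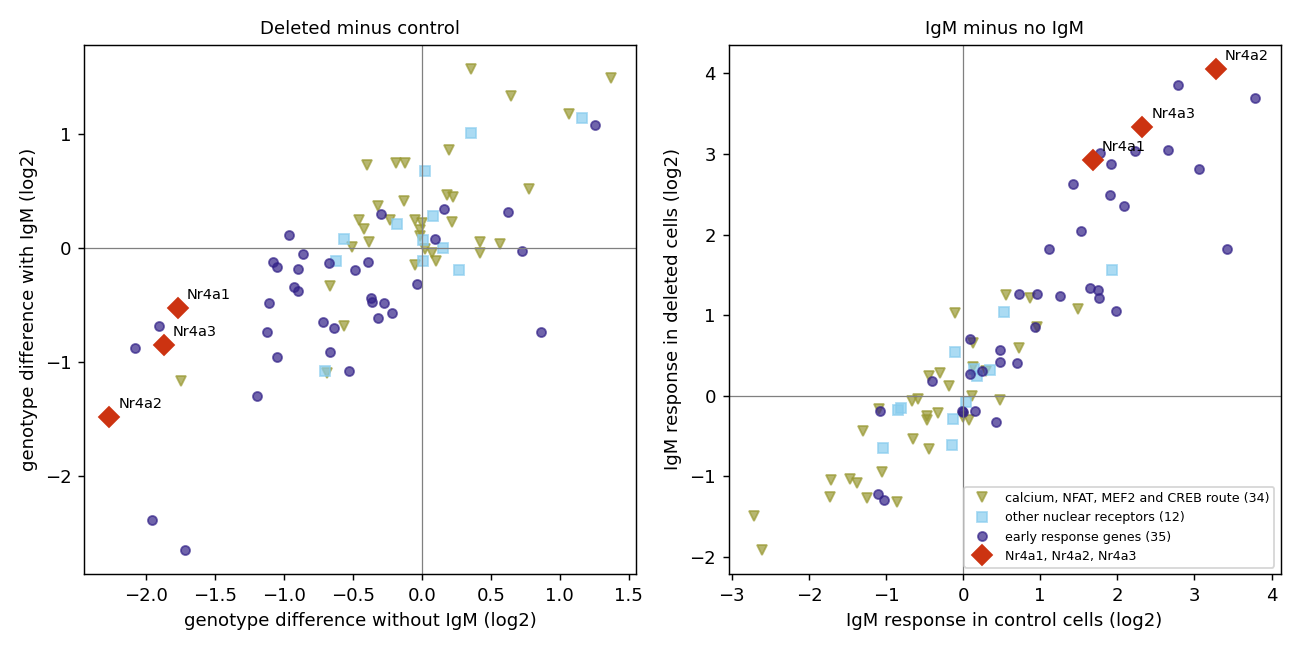
Log2 differences of Nr4a1, Nr4a2, Nr4a3 (diamonds) and of the genes of 3 lists, each gene read by its probe set of highest signal; the left panel sets deleted minus control with IgM (y axis) against that without IgM (x axis), and the right panel the IgM response of deleted cells (y axis) against that of control cells (x axis). The Nr4a genes lie at -1.77 to -2.26 on the left x axis and at 2.92 to 4.06 on the right y axis.

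The genes most like each member across the 12 arrays were ranked by Pearson correlation. The ranking covered 9292 other genes less the predicted genes and clones among them, which were left out before ranking. The arrays fall into stimulated and unstimulated ones, so these values mainly follow the IgM response and are a description. For Nr4a1 the leading genes were Irf4 (0.992), the proton-sensing receptor gene Gpr65 (0.990), the nucleoside transporter gene Slc29a1 (0.985), the NAD synthesis gene Nampt (0.984) and the folate carrier gene Slc19a1 (0.981), while Nr4a3 ranked at 5 and Nr4a2 at 10. For Nr4a2 they were Top1mt (0.997), a mitochondrial topoisomerase gene, Nampt (0.988), the kinase gene Pim3 (0.988), Lonrf1 (0.987) and the nucleolar gene Nop56 (0.986), while Nr4a3 ranked at 6 and Nr4a1 at 14. For Nr4a3 they were the NF-kB subunit gene Rel (0.993), Nop56 (0.990), Nampt (0.989), the arginine transporter gene Slc7a1 (0.987) and Gpr65 (0.985), while Nr4a2 ranked at 6 and Nr4a1 at 11. Without deleted IgM replicate 3 the leading gene was again Irf4, Top1mt and Rel, but lower ranks moved. For Nr4a1, Pecr and Casp4 entered the leading genes and Nr4a2 and Nr4a3 ranked at 15 and 20. For Nr4a2, Nr4a3 ranked at 5 and Nr4a1 at 22, and for Nr4a3, Nr4a2 ranked at 3 and Nr4a1 at 18. The members correlated with each other at 0.979 to 0.985.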

How the data were processed

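The 12 arrays were one-colour Affymetrix arrays, per the labels. The deposited values are log2 values made by the authors with GCRMA, per the submitters' processing notes; its version and settings are not given in the sources used here. GCRMA is a method that estimates background from the bases of each probe, brings the arrays to a common distribution and combines probes into 1 value per probe set. The values fitted a log2 scale, since they ran from 2.23 to 15.79. Values near the lowest have no order. Arrays carry no read depth, and their number limits the precision.

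Members were the probe sets whose platform annotation names only Nr4a1, Nr4a2 or Nr4a3. Symbols were updated through gene identifiers with a table of assembly GRCm38.p6. Of 45101 probe sets, 64 were controls, and 34945 of the others had 1 gene, 932 several and 9160 none. The 19187 probe sets above 4 on at least 3 arrays were tested in R 4.3.3 with lmFit, contrasts.fit and eBayes of limma 3.58.1, with 1 mean for each of the 4 groups. The p-values are two-sided and adjusted by Benjamini-Hochberg over all 19187, with a threshold of 0.05. Fold changes are 2 to the power of the log2 difference. For the lists, each gene was represented by the brightest of its tested probe sets, which gave 9293 genes. On simulated data with known differences between unstimulated groups, the model's estimates followed the sizes put in. Only that comparison was checked. The simulated noise was independent between arrays, so the check does not cover the shared departures of same-numbered arrays or a deviant array.

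Of each list, up to 4 genes per direction with the smallest p past the threshold were eligible to be named, and Rxra, Rxrb, Foxp1 and all members always. Batf, Ccl3, Ccl4, the named markers, and Myc and Crem where they did not pass were added after their values were seen. The members and lists were chosen with earlier results of these data known. Marker lists for T, NK, dendritic, erythroid and plasma cells were also read, and their sums are given with the other observations.

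Replicate numbers recur in every group of the labels. The departures of arrays of one number from their groups' means correlated at 0.24 to 0.84 over tested probe sets, above 0.1 for each of 12 pairs. The numbers therefore pair the samples, and a fit with the number as a block is given where it changes the call of a member or moves a count by over 1.5 times.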

Additional observations from a re-analysis of the deposited data

Results flagged for a closer look

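2 probe sets that were left untested because they stayed under the filter had a signal with IgM above the unstimulated arrays. In control cells 1433423_at of Nr4a2 averaged 1.55 higher on the log2 scale with IgM, with 3 of 3 arrays above all unstimulated ones, and 1421079_at of Nr4a3 averaged 0.70 higher. In deleted cells the IgM and unstimulated arrays of both overlapped. These values lie near the array floor, where the sizes of differences are not exact.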

How the results depend on the processing

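The 12 rises of Nr4a probe sets with IgM kept their direction in every alternative fit, and the lower levels in deleted cells did so too, except that 1450749_a_at without IgM had a difference of 0.0076 without all arrays of number 2. Of 729 alternative values of the 6 probe sets, 657 kept direction and call, 48 lost the call, 13 gained one and 11 turned, 10 of them in the interaction on 1450750_a_at. Those 10 were -0.36 with values below 4 raised to 4, -0.057 with quantile normalization again, -0.052 with each array shifted to the same median, -0.15 without all arrays of number 3, -0.18 with the replicate block and without deleted IgM replicate 3, and -0.30 to -0.13 in 5 of the fits that left out 1 array, which ranged up to 0.32 (control IgM replicate 1, control unstimulated replicate 2, deleted IgM replicate 3 and deleted unstimulated replicates 1 and 3, at -0.19, -0.30, -0.18, -0.14 and -0.13).

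Without IgM the count of 5 Nr4a probe sets became 1 with no filter, 1 with only the arrays compared, and 0, 0 and 1 without all arrays of number 1, 2 and 3; leaving out 1 array gave 2 to 5. With 1 probe set per gene 3 of 3 passed. With IgM the count of 1 Nr4a probe set became 4 with the replicate block, 6 with the block and without deleted IgM replicate 3, 2 with values raised to 4, with quantile normalization again or with shifted medians, and 0 with 1 probe set per gene, with only the arrays compared or without all arrays of number 1, 2 or 3; leaving out 1 array gave 0 to 2. The IgM responses gave 6 and 6 calls, 3 and 3 with 1 probe set per gene by construction, and 6 to 6 without 1 array, but 5 in control cells without all arrays of number 2 (Nr4a3, limma adjusted p = 0.0506) and 5 in deleted cells without those of number 1 or 2 (1450749_a_at, limma adjusted p up to 0.113). The interaction gave 0, or 1 with the block and without deleted IgM replicate 3, and 0 to 0 without 1 array. The cause of these changes in count was not tested. Over all probe sets the calls were 389, 229, 3483, 3260 and 19 in the 5 comparisons in the order of the text, 1028, 921, 6412, 6603 and 38 with the replicate block, and 3197, 1551, 10956, 8815 and 194 with the block and without deleted IgM replicate 3; leaving out 1 array gave 226 to 760, 45 to 258, 2100 to 5870, 1920 to 4044 and 12 to 31. With no filter they were 298, 123, 2581, 2327 and 18, and with only the arrays compared 329, 0, 4819 and 905 for the first 4. They were 94, 3, 831, 699 and 0 without all arrays of number 1, 38, 0, 423, 259 and 0 without those of number 2, 428, 80, 4253, 3671 and 8 without those of number 3, and 265, 160, 1920, 1765 and 10 with 1 probe set per gene. The block changed no other call of an Nr4a probe set than those given in the report. Another background correction was not run.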

Other observations

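Sums of other marker lists, on the linear scale, were as follows. The 5 measured NK cell markers of 6 listed summed to 126 to 1263 in control and 433 to 1784 in deleted cells without IgM, and to 101 to 836 and 152 to 1217 with it. The 8 T cell markers summed to 138 to 355 and 264 to 723 without IgM and to 240 to 457 and 275 to 745 with it, and Cd4 and Cd8a lay at or below 4 on all arrays. The 5 dendritic cell markers summed to 239 to 300.0 and 227 to 389 without IgM and to 416 to 626 and 410 to 455 with it, with Xcr1 at or below 4. The 3 measured erythroid markers of 6 listed summed to 63.8 to 105 and 123 to 851 without IgM and to 58.7 to 68.7 and 98.1 to 337 with it, with Hba-a1 and Klf1 at or below 4. The 4 plasma cell markers summed to 10126 to 13682 and 9587 to 14551 without IgM and to 8808 to 10064 and 8250 to 10995 with it. Of single markers in these lists, limma called the NK cell marker Klrk1 higher in deleted cells without IgM, by 1.56 (SE 0.29, limma adjusted p = 0.0175). It called the plasma cell marker Prdm1 higher in deleted cells with IgM, by 1.56 (SE 0.28, limma adjusted p = 0.0256). No other marker of these lists was called between genotypes.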
